A study of Mus musculus with 8 samples.

Results

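The sample titles of this series carry a letter, P or R, and the comparison described here sets the 4 libraries with the letter P against the 4 with the letter R. All 8 of the 8 libraries of the series enter it. Each letter holds 2 control and 2 mutant pups, so the letter could be compared with the genotype held as a block. The labels do not say what the letter means. Libraries are named by their letter and title number: P3 and P4 (control), P6 and P7 (mutant), R6 and R7 (control), R1 and R5 (mutant).

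The data are polyA RNA sequencing of whole cerebella collected one by one from mouse pups at postnatal day 2, with RNA taken up in TRIzol and libraries made with an Illumina TruSeq kit. Mutants were Math1-Cre; Sufu flox/- and controls Sufu flox/+, on a mixed C57BL/6 background. The mating given in the labels put a floxed Sufu allele and a Math1 mgfp allele into every pup, and the sources used here do not say if control pups had Cre. Math1-Cre is active in the granule cell lineage, so the cells that can lose Sufu are one part of the tissue.

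As background, the newborn cerebellum holds a sheet of dividing granule cell precursors at its surface, which respond to Sonic hedgehog made by the Purkinje cells beneath them. Sufu restrains that response by binding the Gli transcription factors. Read counts of a gene also carry features of the preparation, because fragments rich in G and C, and those from the start of a transcript, can be recovered to different degrees in different libraries.

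Each library held 21479565 to 26638284 counts in genes. The 2 libraries of each group differed by more than sampling noise (chi-square over its degrees of freedom 7.42 to 37). Library R5 stood apart from the rest, at 41.29 on the first principal component (53.39% of the variance of the 500 most variable genes) against -13.87 to 7.76 in the others. Its score for the Hox genes, patterning factors of the more posterior hindbrain, was -2.76 against -0.83 to 1.52 elsewhere; the score is a mean log2 CPM relative to the 8 libraries, and CPM is counts scaled to a common library size. Library P7 held 16258 CPM of Rn45s, the ribosomal RNA precursor, against 703 to 1918 CPM elsewhere. P7 and R5, both mutants, were also the libraries with Y-linked transcripts (Ddx3y at 74.6 and 63.8 CPM, and at most 0.13 CPM in the other 6), so the letters were balanced for them. The defining cerebellar markers were present under both letters: Pax6 stood at 126 to 245 CPM and Car8 at 145 to 314 CPM.

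The libraries differed by letter in how their reads were assigned, before any gene was tested. Reads aligned to several places made up 15.2, 15.3, 15.6 and 16.0% of all entries in P3, P4, P6 and P7, and 12.2, 11.8, 11.7 and 12.02% in R1, R5, R6 and R7. Every P library was thus above every R library, by 3.57 percentage points on average (3.36 within controls, 3.78 within mutants). Reads outside annotated genes were also a larger share in P, at 14.2 to 17.7% against 12.2 to 13.7%. The same held for reads outside exon bins in the bin tables, at 19.1 to 22.6% against 15.2 to 16.3%. Genes with at least 1 count numbered 18938 to 19456 in P and 18739 to 18796 in R. Of 18 library measures, 8 did not overlap between the letters. Each of the 8 had p = 0.0556 in an exact two-sided permutation test with letters permuted within genotype, the smallest value that the 36 arrangements allow, and 0.125 after Benjamini-Hochberg adjustment over the 18 measures, so the design could not take them past 0.05. The letter cannot be told apart from anything else that the 4 libraries of a letter share.

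**Figure D1:**
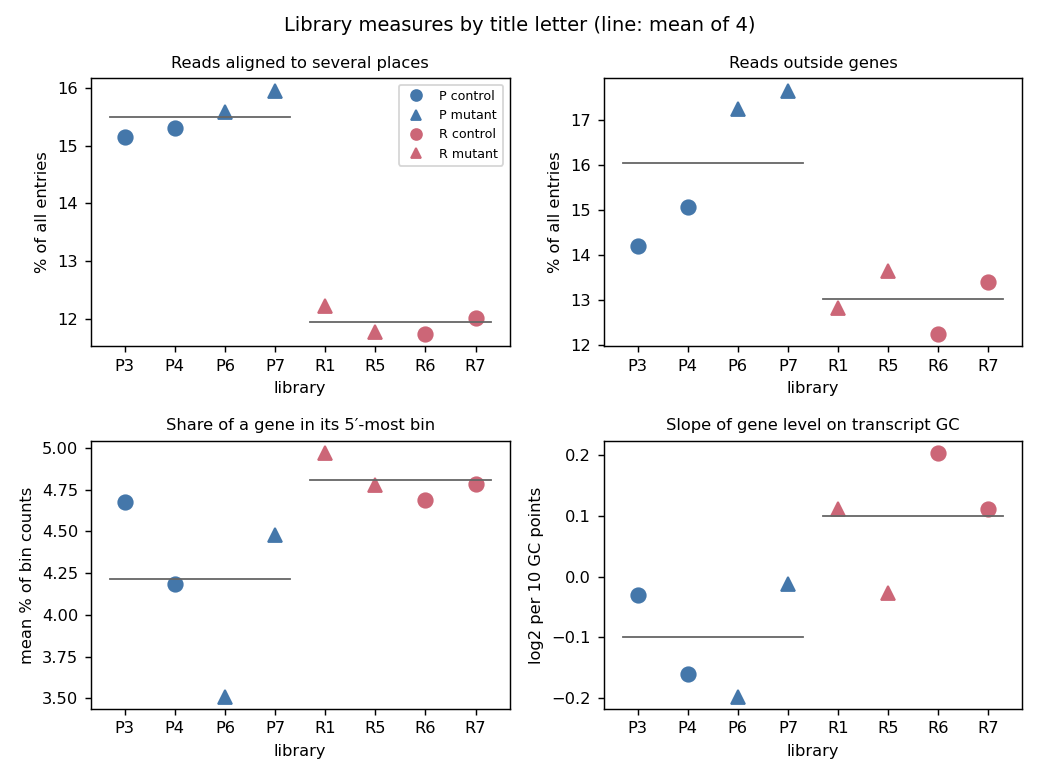
Measures by library: reads aligned to several places and reads outside genes (both % of all entries), the mean share of a gene's bin counts in its 5′-most bin (%), and the slope of gene level on transcript GC (log2 per 10 percentage points). Circles are controls, triangles mutants, blue P, red R, and lines the means of 4; P and R do not overlap in the other 3 panels, and in the GC panel R5 lies below P7.

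In the gene test, 0 of 16159 genes tested differed between the letters at an adjusted p under 0.05 (edgeR quasi-likelihood F test with genotype as a block, 0% called), and the smallest adjusted p was 0.0538. At an unadjusted p under 0.05 there were 4128 genes (25.5%), 1947 higher in R (12%) and 2181 lower (13.5%), and 1749 (10.8%) had an adjusted p under 0.1. DESeq2 with the same terms called 1695 of the 14279 genes it adjusted (11.9%). When the letter difference was instead averaged over both genotypes in a fit of 4 group means, which takes the letter by genotype interaction out of the residual, 2043 genes passed (12.6%). That fit was chosen after seeing the data. Of all genes tested, 1111 had every R library above every P library (6.88%) and 1054 had every R library below (6.52%). Letter accounted for 23% of the sum of squares of log2 CPM, genotype for 24.49%, their interaction for 16.9% and the spread within groups for 35.61%. In the same fit genotype called 0 genes, with 3015 (18.7%) at an unadjusted p under 0.05, and DESeq2 called 303.

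The 10 genes with the smallest p had no overlap between the letters, and their adjusted p ran from 0.0538 to 0.0567, so none passed. All 10 passed in DESeq2 and in the averaged fit, where their adjusted p was 0.0142 to 0.0149. Ubald2, which encodes a small UBA-like domain protein, stood at 0.59, 0.55, 0.44 and 0.60 CPM in the P libraries and at 2.73, 2.72, 1.56 and 2.03 CPM in R1, R5, R6 and R7. Its log2 difference, R minus P, was 2.02 (SE 0.23). The R libraries were all above the P libraries, at a low level of gene counts. Exon bins that join Ubald2 with the gene Gm7367, described below, held far more counts. Bins 4, 5 and 6, with most of these counts, differed in level by log2 0.68, 0.52 and 0.31.

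Ift27, a subunit of the intraflagellar transport machinery of cilia, stood at 21.3, 19.7, 20.2 and 22.3 CPM in P and at 40.1, 40.6, 32.5 and 30.7 CPM in R (log2 difference 0.78, SE 0.09). Prdm13, a transcription factor of GABAergic progenitors, stood at 8.44, 7.87, 8.45 and 8.35 CPM in P and at 17.9, 19.4, 12.4 and 14.3 CPM in R (0.93, SE 0.12). In both genes the 4 P libraries lay close together and the R mutants lay above the R controls. Pdlim3 (0.76), Fibcd1 (0.59) and Cdc42ep1 (0.56) were the other genes of the 10 that were higher in R.

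Tnr, which encodes the matrix protein tenascin-R, stood at 42.2, 38.5, 31.9 and 30.4 CPM in P and at 16.3, 13.1, 26.7 and 24.3 CPM in R (log2 difference -0.87, SE 0.12). St8sia4, a polysialyltransferase that modifies the neural cell adhesion molecule, stood at 56.6, 72.3, 61.8 and 52.1 CPM in P and at 32.4, 27.6, 37.6 and 38.9 CPM in R (-0.84, SE 0.11). Every R library was below every P library for both. Atp13a4 (-1.08) and A330021E22Rik (-0.81) were the remaining 2 of the 10. After adjustment for transcript GC, described below, St8sia4 stood at -0.43, the largest move among the 9 of these genes with a GC value, and Ubald2 at 1.86.

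**Figure D2:**
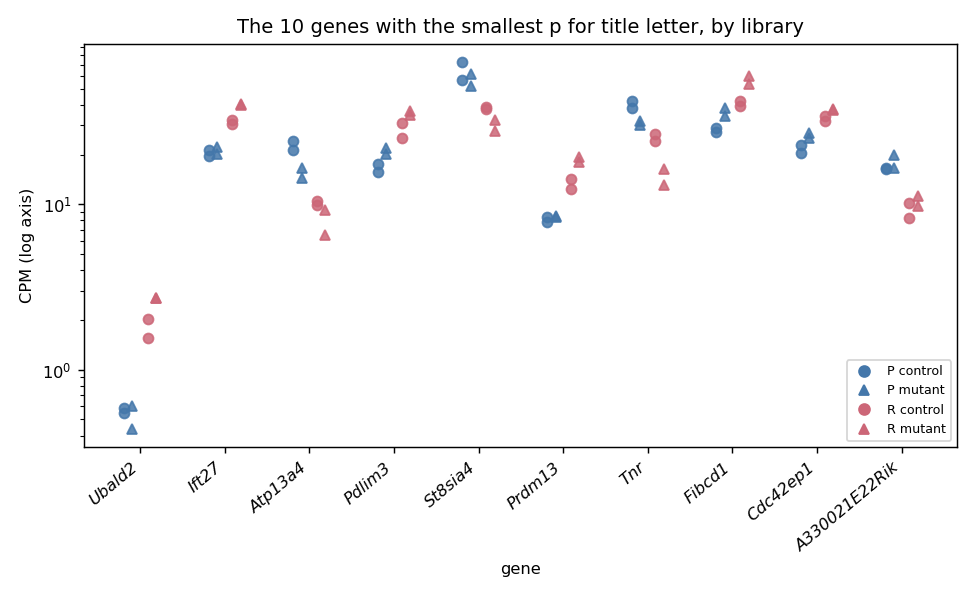
CPM (log axis) of the 10 genes with the smallest p for title letter, in each of the 8 libraries; circles are controls, triangles mutants, blue P and red R. For each gene the P and R libraries do not overlap, as for Ift27 with 19.7 to 22.3 CPM in P and 30.7 to 40.6 CPM in R.

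The difference between letters followed the base composition of the transcripts. In the decile of genes with the lowest GC content (29.6 to 41.9%) the median log2 difference was -0.28, and 47.9% of genes were lower in R at an unadjusted p under 0.05 against 0.91% higher. In the decile with the highest GC content (58.3 to 82.2%) the median was 0.18, with 32.8% higher and 0.455% lower. The medians went up at every step between, and they did so within controls (from -0.38 to 0.22) and within mutants (from -0.17 to 0.15). The median of all genes was -0.01.

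Across 15390 genes, which are not independent replicates, Pearson's r between the letter difference and GC was 0.426 and Spearman's rho 0.51. Within controls r was 0.449 and within mutants 0.21, and for the genotype difference it was -0.122. With log2 length of the transcripts r was -0.148, a relation seen in mutants, where the medians of the shortest and longest deciles were 0.22 and -0.22, and not in controls, where they were -0.06 and -0.06. At like length the GC pattern was present, with medians of -0.20 and 0.09 for long transcripts of low and high GC and of -0.14 and 0.16 for short ones. The slope of gene level on GC was -0.03, -0.16, -0.20 and -0.01 log2 per 10 percentage points in P3, P4, P6 and P7, and 0.11, -0.03, 0.20 and 0.11 in R1, R5, R6 and R7. The letters overlapped in this slope through R5 alone among the R libraries (exact permutation p = 0.111, adjusted 0.182).

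With GC adjusted in each library, which was added after seeing the data, the median size of the letter difference went from 0.17 to 0.13 on the log2 scale. edgeR again called 0 genes, and 2446 of 15390 (15.9%) had an unadjusted p under 0.05. Chromosomes differed along with their GC content. On chromosomes 17 and 19, whose tested genes had a median GC of 53.1 and 52.3%, 18.8% of genes were higher in R. On the X chromosome (45.8%), 29.8% were lower and 4.12% higher, with a median log2 difference of -0.17. Chromosome 13, of like GC (46.5%), had smaller differences, with 22.5% lower, 8.45% higher and a median of -0.08. Whether the X chromosome differed beyond its GC content was not tested. The part of GC in the differences of single genes was not tested beyond the adjusted values given.

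**Figure D3:**
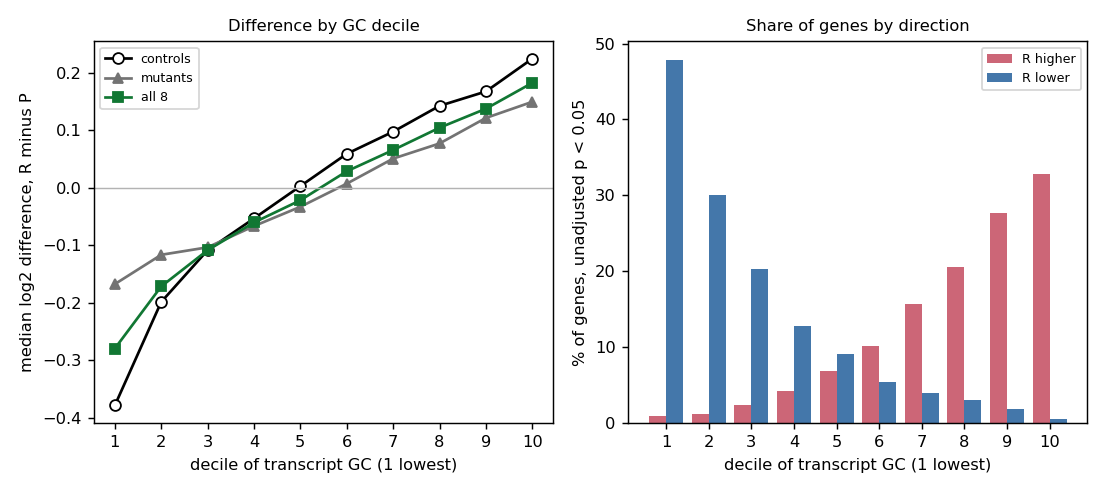
Left, the median log2 difference (R minus P) of deciles of genes ordered by transcript GC, for all 8 libraries (green), controls (open circles) and mutants (grey triangles); right, the percent of genes in each decile higher (red) or lower (blue) in R at an unadjusted p under 0.05. The medians go from -0.28 in the lowest decile to 0.18 in the highest.

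Among markers of the cerebellum's own cells, those of Purkinje cells, the output neurons of the cortex, were mostly higher in R: 7 of 14 tested were higher at an unadjusted p under 0.05 and 0 lower, against 12% and 13.5% of all genes, with a median log2 difference of 0.28. By the adjusted p 0 passed in edgeR here and in all lists below. The same shares of all genes, 12% and 13.5%, are the background for the counts of each list below. Pcp2, a Purkinje cell protein that interacts with G proteins, stood at 12.6, 9.04, 16.5 and 15.6 CPM in P and at 27.1, 30.6, 17.3 and 25.3 CPM in R (0.91, SE 0.15). Skor2, a repressor needed for Purkinje cell differentiation, stood at 11.6, 11.1, 14.2 and 17.5 CPM in P and at 19.2, 23.9, 22.7 and 24.9 CPM in R (0.75, SE 0.15). These 2 genes and Lhx5 (0.45) had every R library above every P library. The list's median was 0.46 within controls, 0.27 within mutants, 0.26 after GC adjustment and 0.45 without P6.

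Granule cell precursor markers had 9 of 12 members higher at an unadjusted p under 0.05 and 0 lower, with a median of 0.38, but the letters overlapped for each of the 12. Atoh1, the transcription factor also called Math1, stood at 18.5, 18.4, 17.1 and 26.3 CPM in P and at 34.8, 47.7, 17.7 and 22.8 CPM in R. The R mutants lay above all P libraries and the R controls among them. Insm1, a zinc finger factor of neuronal onset, was the member with the smallest p (0.63, SE 0.15). The median of the list was 0.27 without R5. Among granule neuron markers, 4 of 11 were higher, and Neurod2, a transcription factor of differentiating granule neurons, had no overlap, with 66.6 to 78.6 CPM in P and 93.4 to 124 CPM in R (0.55, SE 0.08).

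GABAergic interneuron markers had 3 of 9 members higher and 1 lower. Pax2, which marks young interneurons, stood at 31.0 to 37.8 CPM in P and 38.7 to 55.4 CPM in R (0.54, SE 0.11). The progenitor factor Ptf1a (0.73) was likewise above P in each R library, while Gad2, a GABA-synthesizing enzyme, stood at -0.59. Bergmann glia and astroglia markers went both ways, with 6 of 15 higher and 4 lower and a median of 0.08. Aldh1l1, an astroglial folate enzyme, stood at 205 to 234 CPM in P and 271 to 324 CPM in R (0.46, SE 0.08), while Ptprz1, a receptor phosphatase of glial progenitors, stood at 760 to 907 CPM in P and 463 to 716 CPM in R (-0.56, SE 0.12).

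Microglial markers were lower in R for 6 of 17 members at an unadjusted p under 0.05 and higher for 0, with a median of -0.22 (-0.14 without P4 and -0.39 without R1). The median was -0.45 within controls, where 1 of the 17 was positive, and -0.10 within mutants, where 8 were. P2ry12, a nucleotide receptor of resting microglia, stood at 41.4, 39.0, 27.7 and 21.5 CPM in P and at 15.7, 9.85, 18.7 and 19.8 CPM in R (-1.01, SE 0.15), with no overlap. It stood at -0.68 after GC adjustment. Csf1r, the receptor on which microglia depend, stood at -0.45 in both genotypes and overlapped through P7 and R6. In whole tissue, fewer cells of a type and less RNA per cell cannot be told apart.

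Oligodendrocyte lineage markers were lower for 5 of 13 members and higher for 0, with a median of -0.41 (-0.31 without R5). The myelin lipid enzyme gene Ugt8a had the smallest p (-0.69, SE 0.16). It stood at 41.1, 36.3, 30.3 and 19.1 CPM in P and at 19.7, 13.6, 22.6 and 21.4 CPM in R, so that P7 lay below 3 of the R libraries.

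Markers of brainstem neurons, which lie next to the cerebellum, had a median of -0.82, with 5 of 17 lower and 1 higher at an unadjusted p under 0.05. The median was -0.02 within controls and -1.76 within mutants, and -0.42 without R5, the library with the lowest Hox score. Slc18a2, the vesicular monoamine transporter, stood at 15.8, 23.1, 20.1 and 24.9 CPM in P and at 7.79, 5.89, 14.1 and 11.1 CPM in R (-1.17, SE 0.24), the 1 member with no overlap. Tlx3, which is also made in granule cell precursors, was the member on the other side (1.002, SE 0.23). Hox genes had 0 of 16 members at an unadjusted p under 0.05, with medians of 0.92 within controls and -1.24 within mutants, so that their letter difference had opposite signs in the 2 genotypes. The part of brainstem RNA in other differences was not tested beyond the values without R5 and with the Hox score as a covariate.

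Genes of dividing cells stood higher in the R mutants, R5 above all, and no member passed the adjusted threshold. Of 20 G2/M and mitosis genes, 12 were higher at an unadjusted p under 0.05 and 0 lower, and of 20 G1/S and DNA replication genes 14 were higher and 0 lower. The median of the first list was 0.37 over all libraries, 0.10 within controls and 0.65 within mutants, and that of the second 0.36, 0.13 and 0.63. R5 had the highest score for both lists (0.709 and 0.569, against at most 0.281 and 0.332 elsewhere), and without it the medians were 0.26 and 0.25. Cdt1, which licenses replication origins, stood at 22.6, 20.7, 21.01 and 23.3 CPM in P and at 38.4, 44.3, 26.4 and 27.6 CPM in R (0.61, SE 0.13). All R libraries lay above all P libraries, with the R mutants highest. Ccnb1, the mitotic cyclin, was picked after its values were seen. It was higher in R in mutants (0.85) and near 0 in controls (-0.06). Its interaction passed close to the threshold (edgeR adjusted p = 0.0480), as did that of 2.5% of all genes. Without P7 the interaction called 1 gene of all tested.

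Hedgehog target genes had 5 of 14 higher and 1 lower, with a median of 0.16. Gli1, a transcription factor that the pathway itself induces, stood at 40.6 and 39.0 CPM in the P controls and 48.4 and 55.0 CPM in the R controls. In the mutants it stood at 23.1 and 27.0 CPM in P and 33.9 and 46.8 CPM in R, so within each genotype both R libraries lay above both P libraries (0.53, SE 0.12). Bcl2, an inhibitor of cell death, was the member on the other side, below P in each R library (-0.36). Sufu itself stood at 48.1 and 51.1 CPM in P controls, 56.3 and 61.0 CPM in R controls, 31.7 and 34.4 CPM in P mutants and 36.7 and 38.9 CPM in R mutants. Its letter difference was 0.22 (SE 0.07, edgeR adjusted p = 0.114), 0.24 in controls and 0.19 in mutants, and 0.10 after GC adjustment. Every mutant library lay below every control library under either letter. FGF and ERK target genes had 7 of 14 higher and 0 lower, led by the phosphatase gene Dusp5 (0.68, SE 0.17), with overlap for each of the 14.

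**Figure D4:**
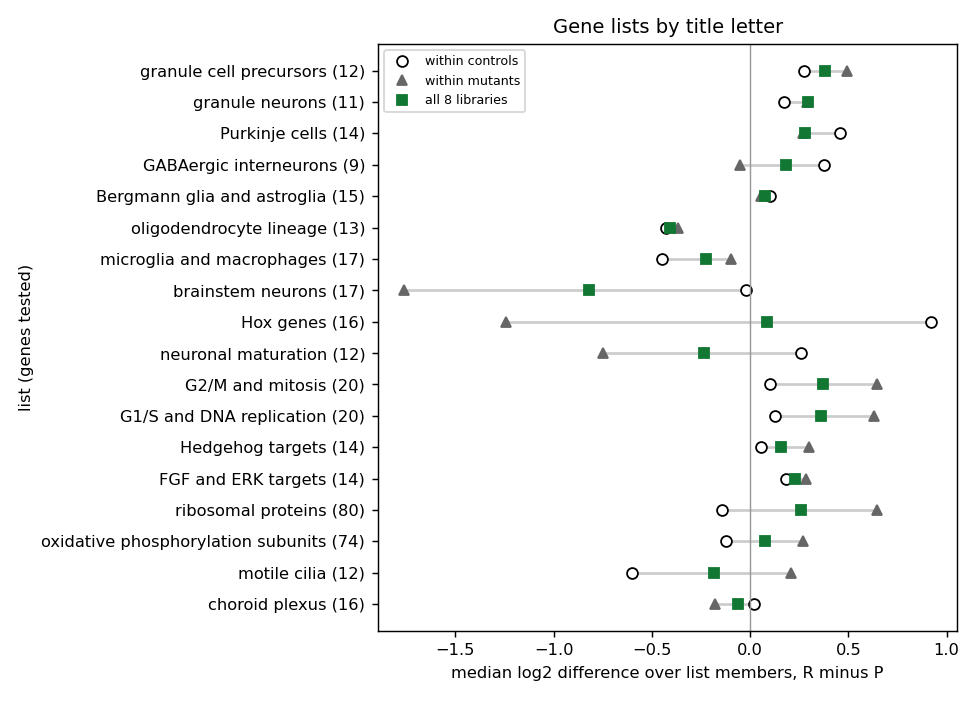
Median log2 difference (R minus P) over the tested members of 18 gene lists, within controls (open circles), within mutants (grey triangles) and over all 8 libraries (green squares); the number of genes tested stands in brackets. Medians of Hox, neuronal maturation and ribosomal protein genes lie on opposite sides of 0 in the 2 genotypes, as with 0.92 and -1.24 for Hox genes.

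Ribosomal protein genes had 19 of 80 members higher at an unadjusted p under 0.05 and 0 lower, against 12% and 13.5% of all genes, with a median of 0.26. The median was -0.14 within controls and 0.65 within mutants, and all 80 were positive in mutants against 19 in controls. Over all libraries it was 0.14 without P6 and 0.17 without R1. Rpl8, a protein of the large subunit, stood at 398, 373, 334 and 373 CPM in P and at 566, 571, 467 and 432 CPM in R (0.45, SE 0.11), higher in R in each genotype (0.22 in controls, 0.68 in mutants). Oxidative phosphorylation subunit genes had 6 of 74 higher and 4 lower, both smaller shares than the 12% and 13.5% of all genes. The list's median was 0.08, and 47 of the 74 were positive (25 within controls, 68 within mutants). Uqcrb, a subunit of complex III and the member with the smallest p, went against most of the list. It was lower in R, at 83.5 to 116 CPM in P and 64.3 to 77.7 CPM in R (-0.45, SE 0.08).

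Lists on time of day, stress and strain are set beside all genes, of which 12% were higher and 13.5% lower at an unadjusted p under 0.05. Of 16 circadian clock genes 1 was higher and 2 lower, with a median of 0.005. Clock, a transcription factor of the oscillator, stood at 69.0 to 79.8 CPM in P and 54.3 to 57.6 CPM in R (-0.40, SE 0.07), and at -0.16 after GC adjustment. The clock repressor genes Nr1d2 (-0.34) and Nr1d1 (0.25) stood on opposite sides. Glucocorticoid targets and interferon response genes each had 0 members at an unadjusted p under 0.05, of 11 and 10. Of 11 heat shock genes 1 was higher and 2 lower. Of 13 genes known to vary between mouse strains, Alad was higher (0.50) and Gabra2 lower (-0.60). MHC genes had 3 of 14 higher and 1 lower. H2-D1, a class I molecule, stood at 21.1 to 30.9 CPM in P, at 52.1 and 48.4 CPM in the R controls and at 32.8 and 22.8 CPM in the R mutants. Reads of H2-D1 and its near-identical relatives are uncertain.

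Whether the letter difference was alike in controls and mutants was tested as an interaction, which called 404 of 16159 genes (2.5%, edgeR). That count was 330 without R5, 2084 without R1, and 1 to 43 without any one of the other 6 libraries, with 1 without P7. Within controls alone the letter called 146 genes (0.904%) and within mutants 2290 (14.2%), each from 2 against 2 libraries with the spread shared over all 8. Fitted on their own 4 libraries, controls called 1524 genes and mutants 764, so which genotype had more calls turned with the spread used. The mutant contrast holds both P7 and R5. Of the 1947 genes higher in R at an unadjusted p under 0.05, 1930 had a positive difference in both genotypes, and of the 2181 lower, 2151 had a negative one, a count that the choice of genes by p favours. Over all genes tested, 57.6% had the same sign in both.

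Genes with large letter differences at low level, chosen after their values were seen, included 3 zinc finger or related genes, Zfp457, Zfp459 and Gm3604. Zfp457 stood at 2.73, 2.62, 2.32 and 2.20 CPM in P and at 0.44, 0.94, 1.10 and 0.94 CPM in R (-1.52, SE 0.23). Zfp459 stood at -1.44 and Gm3604 at -1.33, both also with no overlap, and reads of such genes can be shared with near-identical relatives, so all 3 are uncertain. Gh, the growth hormone gene of the pituitary, stood at 2.70 CPM in P3, 5.36 CPM in P4 and 0.09 CPM in P7 and had no count in the other 5 libraries. Pomc, another pituitary gene, stood at 14.7 CPM in P3 and at 0.80 to 1.84 CPM in the other 7. Levels above 2 CPM were thus seen in P3 and P4 for Gh and in P3 for Pomc, both P controls.

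In the exon bin tables some differences passed the test. Bins are the non-overlapping pieces of a gene's exons, and a bin's use is its count relative to the other bins of the gene. By Simes' method 104 of 13708 genes (0.759%) held a bin used differently at an adjusted p under 0.05 (edgeR diffSpliceDGE), and 130 of 156672 bins passed (0.083%), 124 higher in R (0.0791%) and 6 lower (0.00383%). Of the 130, 92 were the 5′-most bin of their gene, and all 92 were higher in R, out of 11539 such bins tested (0.797%). None of 13035 3′-most bins passed. The 104 genes became 12 without P6, 31 without R1, 49 without P4, 60 without R7, 63 without R6 and 158 without P7. At an unadjusted p under 0.05, 15.8% of 5′-most bins were higher and 0.234% lower, against 0.825% and 0.835% of internal bins and 0.146% and 1.18% of 3′-most bins.

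To show what lies upstream of such starts, the 250 bases before the annotated start are given for the 2 genes, among the 8 with the smallest p, whose called bin is the 5′-most and which have a single start in the table. The sequences are from RefSeq on build GRCm38.p6, plus strand, 5′ to 3′, with each CpG in capitals; Lamp1 lies at chr8:13158911-13159160 and Cab39 at chr1:85793191-85793440.
Lamp1: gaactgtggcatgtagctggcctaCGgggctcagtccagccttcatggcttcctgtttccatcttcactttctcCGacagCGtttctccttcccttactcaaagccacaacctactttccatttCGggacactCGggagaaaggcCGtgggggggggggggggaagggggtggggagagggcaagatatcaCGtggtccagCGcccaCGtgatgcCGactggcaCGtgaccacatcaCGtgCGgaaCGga
Cab39: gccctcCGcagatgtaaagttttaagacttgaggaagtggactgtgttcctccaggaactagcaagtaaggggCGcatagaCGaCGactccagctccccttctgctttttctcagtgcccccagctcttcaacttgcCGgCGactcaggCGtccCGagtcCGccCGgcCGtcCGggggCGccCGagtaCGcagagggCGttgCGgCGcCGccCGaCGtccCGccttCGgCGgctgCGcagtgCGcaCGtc
The Lamp1 stretch has a GC content of 59.6% and 14 CpG, and the Cab39 stretch 64.8% and 27. At least 1 CpG is found in 92.1% of the 32851 promoter stretches of this length in the table, at least 14 in 29.4% and at least 27 in 8.56%. The median is 6. This background holds all promoters in the table, whether or not their gene was tested. Over the longer stretch used for promoter GC below, tested genes had a median of 21.5 CpG. Genes with a called 5′-most bin had a median of 35 CpG over it. Lamp1 had 19 CpG over that stretch, below the median of tested genes, and Cab39 had 35.

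Lamp1, a glycoprotein of the lysosomal membrane, had 1.85, 1.76, 1.57 and 1.84% of its bin counts in bin 1 in P3, P4, P6 and P7, and 3.67, 4.00, 2.87 and 3.03% in R1, R5, R6 and R7. Every R library was above every P library, with a log2 difference in use of 0.94 (edgeR adjusted p = 1.883e-06). Cab39, a scaffold of the LKB1 kinase, had 4.11, 3.49, 2.32 and 4.204% of its counts in bin 1 in P and 7.16, 6.34, 6.50 and 6.01% in R (0.89). Cpeb2, a regulator of translation, had 4.54, 3.20, 2.07 and 4.80% in P and 8.42, 6.998, 7.95 and 6.76% in R (1.07). In Grsf1, an RNA-binding protein, the 5′-most bin held 3.67, 2.89, 1.81 and 3.84% in P and 5.86, 6.53, 5.46 and 4.83% in R (0.90). P6 had the lowest share of all 8 libraries in each of these 4 bins.

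The shift of 5′-most bins was broad and small. Their median log2 difference in use was 0.19 and 82.1% were positive, against 27.4% of 3′-most bins. The mean share of a gene's counts in its 5′-most bin was 4.68, 4.18, 3.51 and 4.48% in P3, P4, P6 and P7, and 4.97, 4.78, 4.69 and 4.79% in R1, R5, R6 and R7. The letters did not overlap, though P3 (4.675%) and R6 (4.690%) were close and P6 lay far below the others. Without P6, 9 of the 5′-most bins passed and the median was 0.10. Without R1 21 passed, without P4 36 and without P7 125. Fitted alone, controls called 12 of these bins higher and 1 lower (median 0.08), and mutants 42 and 0 (median 0.30), settings chosen after seeing the data.

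The shift of 5′-most bins also went with promoter GC, taken here over the 300 bases from 250 before to 50 after the start. In the decile of genes with promoter GC of 27.7 to 50.6% the median log2 difference was 0.10 and 6.87% were higher at an unadjusted p under 0.05, and in the decile with 73.3 to 88% the median was 0.32 and 31.5% were higher. Across 8724 genes Pearson's r was 0.248 and Spearman's rho 0.258. The genes with a called 5′-most bin had a median promoter GC of 71%, against 61.7% for all with a promoter in the table. Whether base composition or position along the transcript is the variable that moved was not tested.

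In Clcc1, Gon4l and a group that holds Ubald2 the called bins were not the 5′-most, but those of Clcc1 and Ubald2 lay near it. Clcc1, which encodes an endoplasmic reticulum chloride channel protein, had 0.63, 0.44, 0.40 and 0.46% of its counts in bin 4 in P and 2.63, 3.48, 3.11 and 2.61% in R, a log2 difference of 2.61 (edgeR adjusted p = 1.883e-06). Bin 3 of the same gene stood at 2.26, and bin 2, which did not pass, at 0.92. These libraries split cleanly by letter whatever their genotype, with 2.42 in controls and 2.83 in mutants for bin 4. Gon4l, a nuclear protein on the same chromosome 3, had its bins 16 (1.53) and 17 (1.11) higher in R, with bin 16 at 0.45 to 0.54% in P and 1.23 to 1.54% in R. The bin group that joins Ubald2 and Gm7367 had bin 3 at 0.06, 0.18, 0.24 and 0.37% in P and 1.72, 1.56, 1.17 and 2.01% in R (2.89). Its bin 2 also passed (2.37), and bin 1 stood at 1.68 (edgeR adjusted p = 0.0547). Ubald2 was also the gene with the smallest p in the gene test. Both results draw on reads of the same gene in the same libraries, so they are not independent.

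Ociad1, an endosomal and mitochondrial protein gene on chromosome 5, had bin 9 lower in R, at 5.70, 6.61, 6.47 and 6.54% in P and 2.98, 4.00, 2.78 and 3.58% in R (-0.93, edgeR adjusted p = 2.01e-06). The difference was -0.95 in controls and -0.91 in mutants. Its relative Ociad2, with 0 coding genes between them in RefSeq, had its 5′-most bin at 1.08, 1.95, 3.32 and 1.06% in P and 5.41, 7.98, 7.52 and 10.9% in R (2.08, edgeR adjusted p = 0.00165). The other 5 bins lower in R were in Fut8 (-1.25), Eps8 (-1.08), Mlf2 (-0.77), Atf7ip (-0.73) and Gria4 (-0.65). In Eps8 and Mlf2 every R library was below every P library, while the letters overlapped in Fut8, Atf7ip and Gria4. The Fut8 bin stood at 1.02, 1.12, 1.38 and 3.13% in P, highest in P7, and at 0.55, 0.61, 0.43 and 1.13% in R. Gria4 encodes an AMPA receptor subunit.

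Lars2, the mitochondrial leucyl-tRNA synthetase gene, held 17 of the 130 bins, all with higher use in R. The letters overlapped in most of them. Of its 16 called internal bins 6 had no overlap, and its 5′-most bin overlapped. Of the other 91 called 5′-most bins, 89 had no overlap. In bin 14 of Lars2 the share was 0.998% in P3, above the 0.893% of R5. Without Lars2 the called bins were 107 higher and 6 lower. Its last bin took 85.4, 90.4, 94.0 and 98.9% of the gene's bin counts in P3, P4, P6 and P7 and 83.9, 85.2, 82.6 and 82.8% in R1, R5, R6 and R7. The use of the other bins is relative to it and so moved the opposite way together. In level the last bin differed by log2 -1.9, and the other bins by -0.42 (bin 7) to 0.23 (bin 14). Lars2 as a whole stood at 271, 401, 702 and 4057 CPM in P and at 225 to 278 CPM in R, in step with Rn45s in P7. Fitted on controls alone, 0 Lars2 bins passed.

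**Figure D5:**
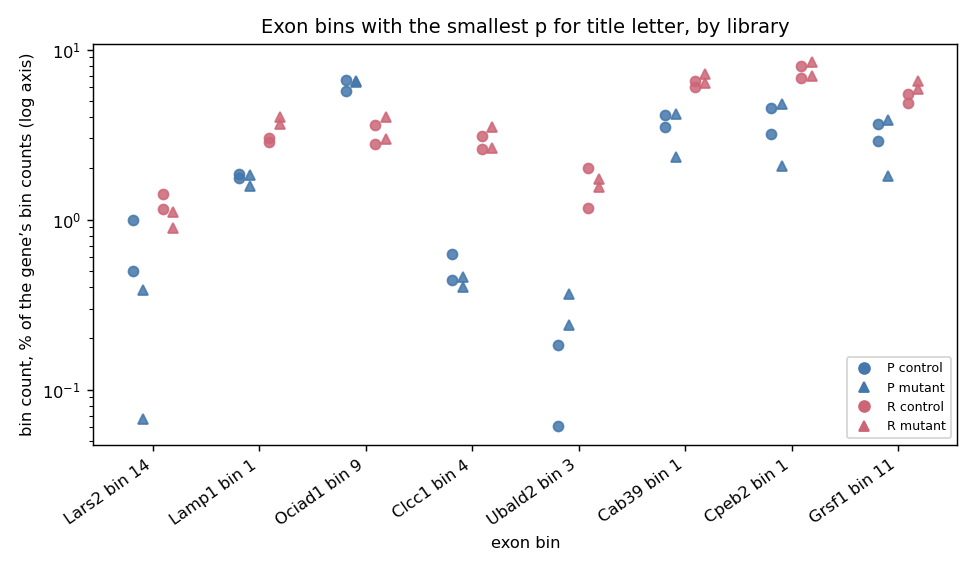
Share of a gene's bin counts (%, log axis) in the bin with the smallest p, for the 8 genes with the smallest Simes p, by library; circles are controls, triangles mutants, blue P and red R, and the bin labelled Ubald2 is of the group joined with Gm7367. Bin 4 of Clcc1 lies at 0.40 to 0.63% in P and at 2.61 to 3.48% in R, and bin 9 of Ociad1 is the one that is lower in R.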

How the data were processed

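PolyA RNA of 8 whole cerebella was counted by the authors per gene and per exon bin, and the deposited counts are whole numbers that were not normalized. TopHat, HTSeq, DESeq2 and mm9 are named, without versions, per the submitters' processing notes; the annotation and strand setting are not given in the sources used here, so antisense and overlapping genes cannot be told apart. The 5 summary lines of each gene table (24.8 to 34.3% of entries) and the 4 of each bin table were left out.

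The gene tables list 24062 genes. edgeR 4.0.16 in R 4.3.3 was run with filterByExpr on the 4 groups, TMM scaling (0.979 to 1.03), robust quasi-likelihood F tests, genotype and letter as terms, and Benjamini-Hochberg adjustment at 0.05, two-sided. Differences are R minus P on the log2 scale, and the SE is taken from the difference and its F. P-values of the main gene and bin tests rest on the spread between pups, 2 in each group, together with the letter by genotype interaction. That interaction stays in the residual of these fits. A fit of 4 group means gave the interaction and the values within a genotype. Bins were tested with diffSpliceDGE, whose natural-log coefficients were converted to log2. DESeq2 1.42.0 and limma 3.58.1 (voom) were alternatives. The gene test and the bin test of R against P were tested on simulated counts. Over 16052 genes, 50% of 50 genes changed 1.5-fold, 80% of 50 changed 2-fold and 96% of 50 changed 4-fold were called. Of the calls, 4.12% were false. Over 13708 genes, 70% of 50 bins changed 2-fold and 90% of 50 changed 4-fold were called, and 10.1% of calls were false, above the threshold of 0.05. The simulated counts held no genotype difference, interaction, GC shift or outlying library, unlike the data. These shares therefore do not give the power of the tests on the real libraries.

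GC content and length are from GENCODE release 21 transcripts matched by symbol (95.2% of tested genes), and promoters from RefSeq; both are on a later build than mm9, so no positions were joined to the counts. GC was adjusted by a lowess offset per library (span 0.3). List scores are mean log2 CPM of the tested members, less the mean of the 8 libraries.

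The comparison, the 43 gene lists and the alternatives were chosen with earlier results of these data known. Genes are named by rule: the 10 smallest p where fewer than 10 pass, each list's smallest p, Sufu, and the 8 genes with the smallest Simes p, with their smallest-p bin. Other list members and bins, and the low-level genes, were chosen after their values were seen. Rn45s has no GC value, and multi-copy genes are uncertain because reads aligned to several places were left out of counts. Some list members are not reported here.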

Additional observations from a re-analysis of the deposited data

Results flagged for a closer look

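The scores of 4 gene lists moved one way by letter in controls and the opposite way in mutants, with both libraries of one letter beyond both of the other in each genotype. None of these differences was tested for a list. The ribosomal protein score was lower in R in controls (-0.178) and higher in mutants (0.669), a difference of 0.848 between the genotypes. It stood at 0.143 and -0.0177 in P3 and P4, -0.106 and -0.125 in R6 and R7, -0.412 and -0.205 in P6 and P7, and 0.401 and 0.321 in R1 and R5. The oxidative phosphorylation score moved by -0.13 in controls and 0.268 in mutants, a difference of 0.398.

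The neuronal maturation score, over 12 genes that include Scn1a and Grin2a, moved by 0.188 in controls and -0.686 in mutants. That is a difference of -0.874, with R5 lowest at -0.815. Of the 12 genes, 9 were positive in controls and 0 in mutants. Grin2a did not follow the score, as it was lower in R in controls (-0.27) and in mutants (-1.06). The motile cilia score moved by -0.522 in controls and 0.298 in mutants, a difference of 0.821, and without P3 the list's median over all libraries went from -0.184 to 0.114. Groups of 2 libraries are too small to test a single library for standing apart.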

How the results depend on the processing

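Of the 1284 values of named genes under alternatives, 1059 kept their direction and side of the threshold, 220 came past it and 5 changed sign, none of those past it. Hoxa2, at -0.67 as tested, stood at 0.015 in controls alone. Eif2s3y, a Y-linked gene at -0.26 as tested, stood at 0.58 with DESeq2 and 1.08 averaged over genotypes, and ranged from -8.48 (without R5) to 0.73 (without R1) and 8.24 (without P7). Of 94 values of named bins, 90 kept both, and 4 were no longer past it: Grsf1 without P6 (0.66, edgeR adjusted p = 0.207) and in controls alone, Lars2 in controls alone and Cpeb2 in mutants alone. The number of genes called by letter was 0 as tested, 1695 with DESeq2, 196 with no filter on low counts, 6 with upper quartile scaling, 1681 with the Hox score and 1 with Xist as a covariate, 1524 in controls alone and 764 in mutants alone. Without P7 and R5 it was 130, and averaged over genotypes in the fit of 4 group means 2043, both added after seeing the data. Leaving out 1 library gave 0 (without P7, for example) to 2 genes (without P6). Genotype called 303 genes with DESeq2, and 0 to 3 with 1 library left out. The interaction called 404 genes, 1131 with DESeq2, and from 1 (without P7) to 2084 (without R1).

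Genes with differing bins numbered 104, with 284 by the gene-level F test, 65 with no genotype block, 36 in controls alone and 39 in mutants alone, and 12 (without P6) to 158 (without P7) with 1 library left out. Bins numbered 130, with 48 in controls alone, 76 in mutants alone, and 32 (without P6) to 169 (without P7). Of the 48 in controls, 24 were higher and 24 lower in R. The causes were not tested, except that fits of 1 genotype hold fewer libraries. Of 344 list medians with 1 library left out, 38 moved by more than the spread between libraries. No paired analysis was possible because the title numbers shared between letters, 6 and 7, belong to libraries of opposite genotype. With 2 pups per group, differences of low-count genes and bins are limited by counting as well as by the spread between pups.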
